A study of Hordeum vulgare with 18 samples.

Results

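The comparison described here set flag leaves of the barley (Hordeum vulgare) cultivar Karl at 21 days post anthesis against flag leaves of the same cultivar at 7 days post anthesis. It used 6 of the 18 libraries of the series, namely Karl 21 d replicates A, B and C and Karl 7 d replicates 1, 2 and 3, and was made over all 9973 genes that passed a filter on low counts. The series also holds Karl at 14 d and, at the same 3 days, the line 10_11, known as a near-isogenic relative of Karl, with 3 libraries in each group. All plants grew in potted soil in a glasshouse under the same fertiliser and day length. Each library came from a separate sample of at least 10 pooled flag leaves whose anthesis date had been recorded. RNA was read as tags from the 3' ends of transcripts by MARS-seq, so counts do not scale with transcript length. A library averages over pooled leaves and all their cells, and fewer cells of a type cannot be told apart from less RNA per cell.

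The flag leaf is the last leaf a cereal shoot makes, and it supplies much of the sugar and nitrogen that the grain receives. After anthesis it passes from an assimilating organ to a source of recycled nutrients. Chloroplasts are dismantled, chlorophyll and photosynthetic proteins are broken down, and amino acids leave through the phloem. In leaves of this kind, transcripts of photosynthesis are known to decline with age, while those of proteolysis, transport and stress responses accumulate. The table gives genes by identifier only, and 0 of its identifiers matched the reference gene table, so these processes could not be read from the data. For the same reason the flag leaf label was not checked against marker genes, and genes are grouped below by level, size of change, timing and place in the genome.

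Karl libraries of 21 d held 1351123, 2616825 and 1519100 counts in replicates A, B and C, and those of 7 d held 947762, 599513 and 821757 counts in replicates 1, 2 and 3. The 7 d libraries were thus the shallower ones. The library labelled 10_11 14 d C, described from these data before as not matching its line and not examined again here, enters the filter, the shared spread, means over all libraries and the 14 d points of 10_11 in the plots. In both lines the labels also number the 7 d samples where they letter the later ones. The library codes of the 7 d samples likewise begin with other numbers than those of the later days. Age and any difference in preparation that goes with these labels cannot be told apart. Pairs of libraries correlated at 0.930 to 0.959 within 21 d, 0.900 to 0.936 within 7 d and 0.789 to 0.846 between the days (Pearson's r of log2 CPM across genes, which are not independent replicates). The median standard deviation of a gene's log2 CPM was 0.28 at 21 d and 0.42 at 7 d.

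At 21 d, 1035 genes were higher and 1083 lower than at 7 d in Karl, which is 10.4% and 10.9% of the genes tested (edgeR quasi-likelihood test, Benjamini-Hochberg adjusted p under 0.05). The genes that rose had a median level of 50.3 CPM at 21 d, against 17.0 CPM at 7 d, where CPM is a library's counts scaled to a common total with TMM factors. Those that fell had a median level of 28.2 CPM at 21 d, against 77.7 CPM at 7 d. The call itself sets which day is the higher within each set of genes, and it favours the order of the sets on each day. The median log2 fold change was 1.57 among genes that rose and -1.33 among genes that fell, with 0.01 over all genes tested. Between the lower and upper quartiles, all genes tested ran from -0.50 to 0.56.

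Most changes were of moderate size. A gene with 0 counts in every library of a day was counted by its least fold, against a floor of 3 counts over that group. Of the genes that rose, 824 changed at least 2-fold, 363 at least 4-fold and 146 at least 8-fold. Of those that fell, 802 changed at least 2-fold, 257 at least 4-fold and 95 at least 8-fold. The smallest changes called were 0.48 and -0.49 on the log2 scale. The libraries of the days did not overlap in 1021 of the genes that rose and in 1020 of those that fell. Non-overlap alone was common, with 20.4% of tested genes higher in every 21 d library and 17.7% lower in every one, and 1750 non-overlapping genes were not called. In the authors' deposited table, 1011 genes were higher at 21 d and 1082 were higher at 7 d at an adjusted p under 0.05, and 1922 of the 2118 genes called here also passed there.

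**Figure D1:**
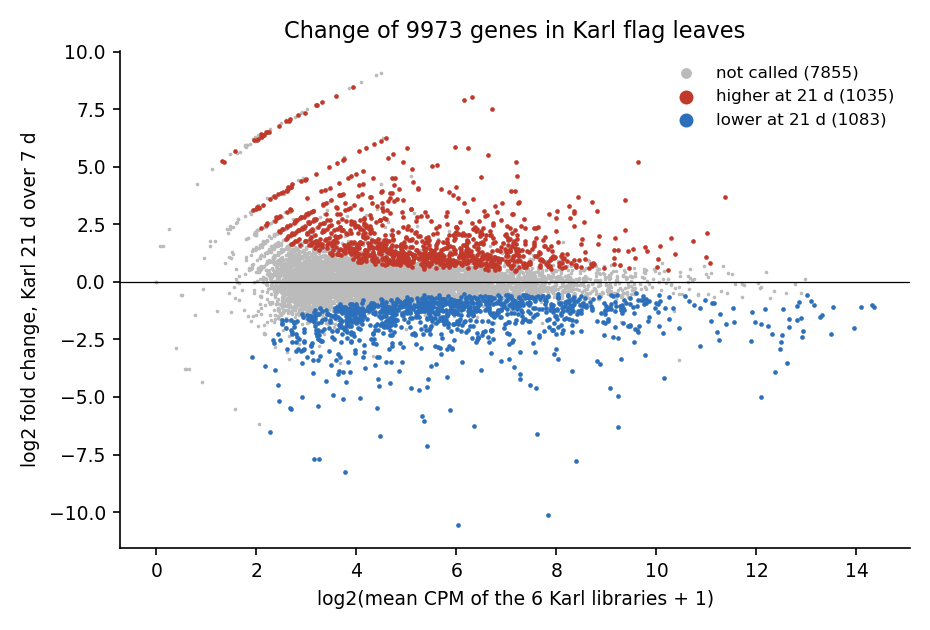
Each point is 1 of 9973 genes, with the log2 of its mean CPM over the 6 Karl libraries plus 1 on the x axis and its log2 fold change (21 d over 7 d) on the y axis. The 1035 genes called higher at 21 d are red, the 1083 called lower are blue, and among the most abundant transcripts, at the right end, blue points outnumber red ones.

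Transcripts that filled the larger part of the young leaf's counts fell. The 1083 genes that fell held 24.4%, 30.0% and 25.4% of the counts of tested genes in 21 d replicates A, B and C, against 53.9%, 52.5% and 53.4% in 7 d replicates 1, 2 and 3. The 1035 genes that rose held 17.3%, 14.8% and 15.04% at 21 d, against 3.83%, 4.33% and 4.10% at 7 d. The 7855 genes not called filled the remainder, with 57.7% ± 2.20 at 21 d and 42.7% ± 0.458 at 7 d (SD, n = 3). These shares describe genes that the same libraries chose. The contrast that chose them leaves out the libraries of 10_11, which entered the same fit through the filter, the scaling and the shared spread. These libraries gave 21.2% ± 0.930 at 21 d and 54.1% ± 1.18 at 7 d for the genes that fell in Karl (SD, n = 3; two-sided exact permutation p = 0.1, which 3 against 3 cannot go below). For the genes that rose in Karl, 10_11 gave 18.5% ± 2.19 at 21 d and 4.21% ± 0.0830 at 7 d (SD, n = 3; exact permutation p = 0.1). In neither line did the libraries of the days overlap in these shares.

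**Figure D2:**
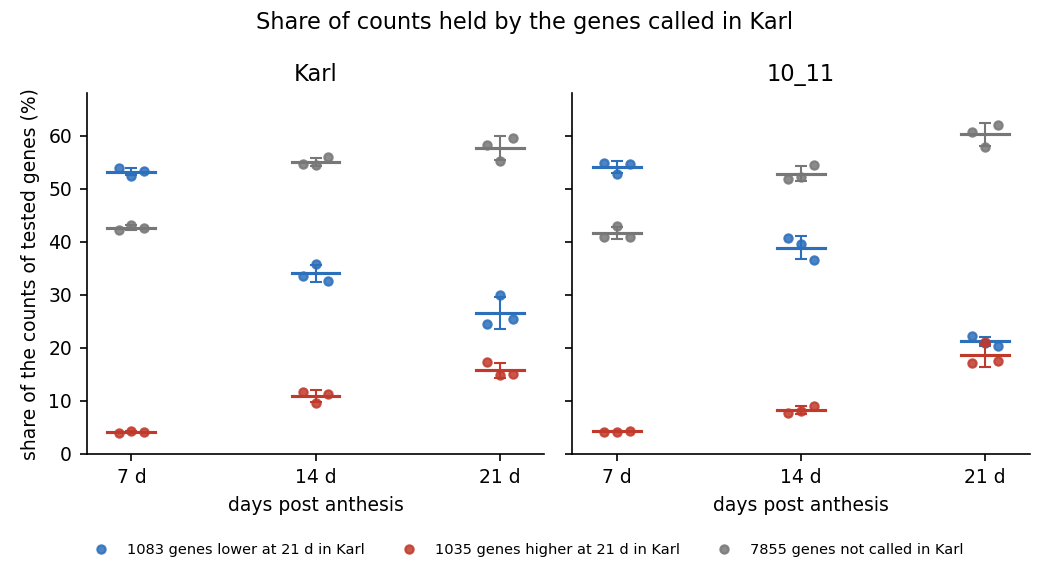
The y axis is the share (%) of the counts of tested genes held by genes that fell, genes that rose and genes not called between 7 d and 21 d in Karl, for each Karl library (left) and each 10_11 library (right) by days post anthesis; bars are means and error bars SD over 3 libraries. The falling genes held 26.6% in Karl at 21 d and 53.2% at 7 d, and those of 10_11 moved the same way.

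The loss lay mostly in a small number of genes. The summed loss of mean CPM over the genes that fell came to 81.9% from the 100 with the largest losses and to 30.1% from the largest 10. Among genes that rose, the 100 with the largest gains made up 54.5% of the summed gain and the largest 10 made up 20.6%. The part of the starting level in this concentration was not tested. Of the 10 genes with the highest mean over all 18 libraries, 9 fell in Karl and 0 rose at the threshold. Of the 100 highest, 49 fell and 7 rose. Of the 500 highest, 166 fell and 57 rose, with a median log2 fold change of -0.31. Over all genes tested, 10.9% fell and 10.4% rose. The ranking mean takes in the Karl libraries compared, so a high level on either day helps a gene onto these lists. The same 10 genes held 8.76%, 10.2% and 8.73% of all counts in 21 d replicates A, B and C, against 15.8%, 14.1% and 16.1% in 7 d replicates 1, 2 and 3. The same 100 held 33.9% ± 1.94 at 21 d and 48.4% ± 2.11 at 7 d (SD, n = 3, exact permutation p = 0.1). The same 500 held 56.3% ± 1.46 at 21 d and 68.05% ± 2.29 at 7 d (SD, n = 3; exact permutation p = 0.1). The share of the 100 fell by more than that of the 500, so the genes of the 500 ranked below the first 100 together gained share. No 21 d library overlapped a 7 d library in any of these shares.

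Counts were spread over more genes in the older leaf. After thinning every library to 353982 counts, 11690, 11447 and 11679 genes had a count in 21 d replicates A, B and C, against 10682, 11034 and 10735 in 7 d replicates 1, 2 and 3. The effective number of genes, the exponential of the Shannon entropy of a library's count shares, was 2019 ± 146 at 21 d and 1038 ± 116 at 7 d (SD, n = 3; exact permutation p = 0.1). This number was computed on the full counts without thinning, and the part of depth in it was not tested. Of the 100 genes with the highest mean CPM at 21 d, 76 were also among the 100 highest at 7 d. The other 24 of each list were chosen by the change itself, so their direction is a description: 14 of those on the 21 d list were among the 10.4% of genes called higher, and 20 of those on the 7 d list among the 10.9% called lower.

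The balance of calls depended on how libraries were scaled. TMM gave factors of 1.07 to 1.20 to the 21 d libraries and 0.783 to 0.911 to the 7 d libraries. With library totals alone, a setting chosen after seeing the data, there were 2688 rises and 522 falls at 21 d (83.7% of calls higher, against 48.9% with TMM), and the median log2 fold change of all genes was 0.49 in place of 0.01. RLE factors, another scaling that assumes most genes did not change, gave 1050 higher and 1063 lower. The near-equal numbers in each direction are thus relative to the typical gene. Amounts of RNA per leaf were not measured.

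4 genes show the change where it moved the most tags, the 2 rises and the 2 falls with the largest differences of mean CPM among genes called with no overlap. The files give no function for them. HORVU5Hr1G095580, on chromosome 5, had 5670, 2914 and 6123 CPM in 21 d replicates A, B and C, against 294, 582 and 280.5 CPM in 7 d replicates 1, 2 and 3. The groups were far apart, and replicate B was the lowest of the older libraries. The log2 fold change was 3.67 (SE 0.57, edgeR adjusted p = 0.000236), which took the gene to rank 17 by mean CPM at 21 d, against rank 410 at 7 d.

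HORVU5Hr1G066250, also on chromosome 5, had 3964, 2509 and 3514 CPM in 21 d replicates A, B and C, against 534, 1088 and 708 CPM in 7 d replicates 1, 2 and 3. The groups did not overlap, and replicate B was again the lowest at 21 d while replicate 2 was the highest at 7 d. The log2 fold change was 2.10 (SE 0.30, edgeR adjusted p = 0.00014). In both risers the level at 14 d was still near or below that of 7 d, with 116, 369 and 181 CPM for HORVU5Hr1G095580 and 937, 755 and 984 CPM for HORVU5Hr1G066250 in 14 d replicates A, B and C. Against 14 d, the log2 fold change at 21 d was 4.46 (SE 0.58, edgeR adjusted p = 0.0037) and 1.90 (SE 0.30, edgeR adjusted p = 0.00691), a pair of comparisons that share the 21 d libraries with the main one.

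HORVU5Hr1G051010, on chromosome 5, had 5374, 7203 and 6397 CPM in 21 d replicates A, B and C, against 28662, 18336 and 29128 CPM in 7 d replicates 1, 2 and 3. It ranked 3 by mean CPM at 7 d and was still at rank 9 at 21 d. The log2 fold change was -2.004 (SE 0.23, edgeR adjusted p = 1.7e-05). HORVU2Hr1G057700, on chromosome 2, had 2924, 5954 and 3037 CPM at 21 d, against 20850, 16139 and 20414 CPM at 7 d, with -2.27 as log2 fold change (SE 0.27, edgeR adjusted p = 2.28e-05). Neither gene's groups overlapped, and replicate B kept the highest level of the 21 d libraries in both.

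The pair that fell was already lower at 14 d than at 7 d. HORVU5Hr1G051010 had 7297, 8902 and 7639 CPM in 14 d replicates A, B and C, with -1.68 as log2 fold change against 7 d (SE 0.23, edgeR adjusted p = 0.000415). HORVU2Hr1G057700 had 7125, 8523 and 6856 CPM there, with -1.35 as log2 fold change (SE 0.26, edgeR adjusted p = 0.00408). From 14 d to 21 d neither change was called. The log2 fold change was -0.33 (SE 0.22, edgeR adjusted p = 0.58) for HORVU5Hr1G051010. For HORVU2Hr1G057700 it was -0.92 (SE 0.26, edgeR adjusted p = 0.101), so a further fall of that gene is left undecided. In 10_11 all 4 genes changed the same way from 7 d to 21 d, by 3.95, 2.91, -2.46 and -3.09 on the log2 scale (edgeR adjusted p of 6.36e-05, 3.92e-06, 1.11e-06 and 6.04e-07).

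**Figure D3:**
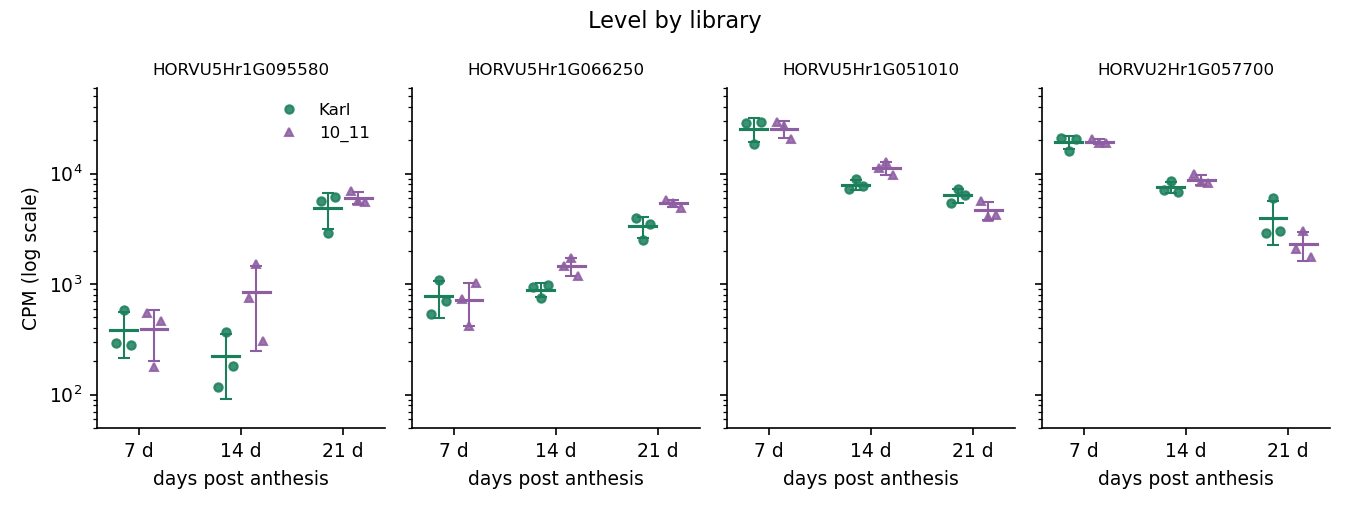
The y axis is the level in CPM on a log scale and the x axis the days post anthesis, with Karl libraries as circles and 10_11 libraries as triangles; bars are means and error bars SD over 3 libraries. The panels on the left, HORVU5Hr1G095580 and HORVU5Hr1G066250, stand in Karl far above their 14 d level by 21 d, and those on the right, HORVU5Hr1G051010 and HORVU2Hr1G057700, are lower at 14 d than at 7 d.

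The 21 d libraries did not stand equally far from the young leaf. Among genes that fell, replicate B lay nearest to the 7 d mean in 575 genes, replicate C in 331 and replicate A in 177. Their median log2 differences from the 7 d mean were -1.13, -1.27 and -1.30. Among genes that rose, replicate C lay nearest in 503 genes, replicate B in 373 and replicate A in 159. Fewer genes passed when a library was left out, and none was called in the opposite direction. The count of genes that rose was 684 without Karl 7 d replicate 1, and the count that fell was 717 without Karl 21 d replicate A. Of the 2118 genes called, 1012 were called in the same direction with each of the 6 libraries left out in turn, 497 higher and 515 lower.

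Calls were more frequent among abundant genes. Genes were split into 4 bins of equal size by mean log2 CPM over all 18 libraries, and the lowest bin had 7.58% of its genes higher and 5.45% lower at 21 d. The next had 8.50% and 7.30%, the third 10.7% and 11.0%, and the highest 14.8% and 19.7%. The median log2 fold change was 0.11 in the lowest bin and -0.07 in the highest. The median size of a called change was 2.68 on the log2 scale in the lowest bin and 1.15 in the highest. Precision moved with these values, since the median SD of log2 CPM in the lowest bin was 0.382 at 21 d and 0.634 at 7 d, and in the highest 0.210 at 21 d and 0.307 at 7 d; its part in the result was not tested.

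With genes at 0 held to that floor, 56 genes that rose and 42 that fell changed at least 16-fold. The risers among them had a median of 40.3 CPM at 21 d and 1.02 CPM at 7 d, and 11 of them reached a mean of 100 CPM at 21 d. The fallers had a median of 1.16 CPM at 21 d and 67.4 CPM at 7 d, and 15 had a mean of 100 CPM or more at 7 d. The fitted folds alone put 81 risers past this size, of which 26 had 0 counts in every 7 d library, and a fit of such a gene depends on the prior count.

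Among deposited genes, 486 had 0 counts in every Karl 7 d library, and 61 of them passed the filter. A gene at 0 on a day passes only through groups where it is higher and can be called in 1 direction alone, so its direction is no result. Of the 61, 26 were among the 10.4% of genes called higher at 21 d, where their means ran from 2.96 to 28.8 CPM with a median of 7.21 CPM. Against the floor of the 7 d group, 1.56 CPM, the median gene was at least 4.63-fold higher and the highest at least 18.4-fold. In 10_11, 9 of the 26 also had 0 counts in every 7 d library. Fewer genes, 84, had 0 counts in every 21 d library, of which 14 passed the filter and 5 were among the 10.9% called lower. The 5, named because they are few, were HORVU5Hr1G011730 at 128.3 CPM at 7 d, HORVU3Hr1G081180 at 25.4 CPM, HORVU1Hr1G054200 at 17.0 CPM, HORVU1Hr1G000470 at 15.9 CPM and HORVU5Hr1G064690 at 7.73 CPM. Against the floor of the 21 d group, 0.485 CPM, the median of them was at least 35.1-fold lower at 21 d. Depth differed too, with 5487048 counts in the 21 d libraries together and 2369032 in the 7 d libraries, and its part in these numbers was not tested.

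The third Karl group, 14 d, shares no library with the 2 days compared. The mean level at 14 d lay between those of the outer days in 843 of the 1035 genes that rose and 964 of the 1083 that fell, against 5095 of 9973 over all genes tested. It lay beyond the 21 d level in 179 genes that rose and in 105 that fell. On the log2 scale with 0.5 CPM added, it was nearer to 21 d than to 7 d in 78.6% of the genes that rose and 74.2% of those that fell, against 63.5% of all genes. The called genes were chosen for a wide gap between 7 d and 21 d, which by itself makes a 14 d level between them more likely. How often that choice alone would place 14 d there was not computed. The rates over all genes are thus no fair reference, and these counts are a description.

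Each interval has its own test, and each shares libraries with the main comparison. Of the genes that rose over the whole period, 452 were called higher at 14 d than at 7 d, where 5.59% of all genes were, and 42 were called higher at 21 d than at 14 d, where 0.441% were. Of those that fell, 440 were called lower at 14 d than at 7 d, against 5.05% of all genes, and 41 lower at 21 d than at 14 d, against 0.531%. The call of 555 risers and 615 fallers was reached in neither interval alone. The median log2 fold change of genes that rose was 1.15 over the first interval, 7 d to 14 d, and 0.40 over the later one. That of genes that fell was -0.88 over the first and -0.46 over the later. Only the first of these intervals crosses the difference in labelling of the 7 d samples.

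The same 2 days were compared in 10_11, in libraries outside the Karl contrast, though all libraries entered 1 fit. Of the genes that rose in Karl, 98.7% had a positive log2 fold change in 10_11, against 52.0% of all genes, and 73.0% were called higher there, against 14.9% of all genes tested. Of those that fell in Karl, 97.0% were negative in 10_11 and 74.2% were called lower, against 14.1%. For genes that rose in Karl the median log2 fold change was 1.56 in 10_11 and 1.57 in Karl. For genes that fell it was -1.41 in 10_11 and -1.33 in Karl. The call in Karl favours genes with a large estimated change in Karl and not in 10_11. The sizes are thus not compared on equal terms, and how much this choice adds was not computed. Among genes that changed at least 8-fold in Karl, 144 of 146 that rose and 93 of 95 that fell had the same sign in 10_11. The change was the larger in 10_11 for 533 of the genes that rose and 596 of those that fell. Pearson's r of the log2 fold changes was 0.804 over all 9973 genes and 0.901 over the 2118 chosen for their change in Karl, as a description across genes of the same libraries.

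**Figure D4:**
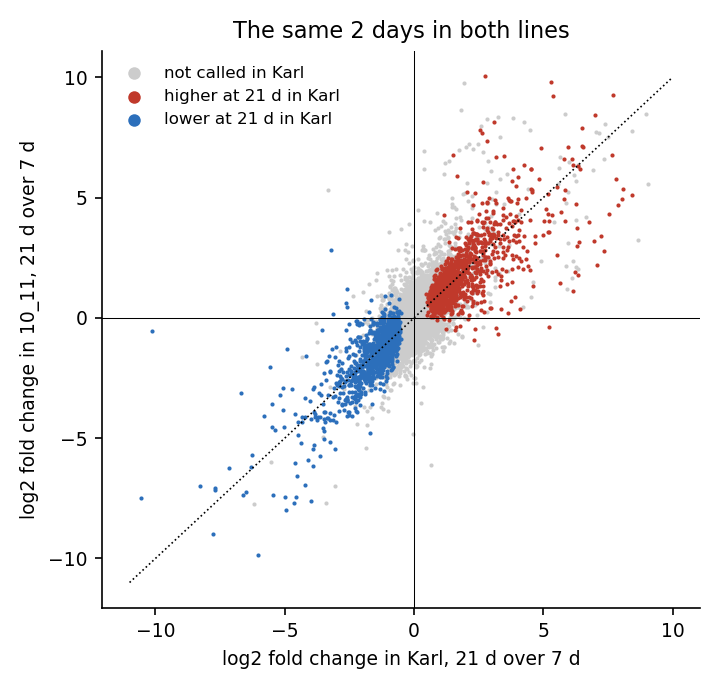
The x axis is the log2 fold change (21 d over 7 d) in Karl and the y axis that in 10_11, for each of 9973 genes; red and blue points are genes called higher and lower at 21 d in Karl, and the dotted line marks equal change. 98.7% of the red points lie above 0 on the y axis and 97.0% of the blue points below it.

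When the change in Karl was tested against that in 10_11, edgeR called 0 genes, with 772 genes or 7.74% at an unadjusted p under 0.05. DESeq2 called 30, and edgeR on the 12 libraries of the outer days alone called 1. By the edgeR test over all libraries, no change called in Karl and not in 10_11 was shown to be particular to Karl. 4 genes were called in opposite directions, all lower at 21 d in Karl and higher in 10_11. HORVU3Hr1G071870, on chromosome 3, had 143, 116 and 134 CPM in Karl 21 d replicates A, B and C, against 207, 187 and 188 CPM in Karl 7 d replicates 1, 2 and 3. In 10_11 it had 343, 330 and 296 CPM at 21 d, against 212, 169.8 and 185 CPM at 7 d. HORVU4Hr1G075310, on chromosome 4, had 16.4 ± 4.35 CPM at 21 d, against 29.6 ± 6.08 CPM at 7 d in Karl (SD, n = 3). In 10_11 it had 28.0 ± 11.8 CPM at 21 d, against 13.9 ± 3.83 CPM at 7 d (SD, n = 3).

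HORVU2Hr1G109660, on chromosome 2, had 13.8 ± 2.41 CPM at 21 d, against 30.3 ± 3.54 CPM at 7 d in Karl, and 29.3 ± 6.48 CPM at 21 d, against 16.2 ± 7.98 CPM at 7 d, in 10_11 (SD, n = 3). Its 10_11 groups overlapped, and its Karl call was lost with thinned counts (edgeR adjusted p = 0.288) and without Karl 7 d replicate 3 (0.0547). HORVU0Hr1G024560, which is unplaced, had 0, 1.44 and 3.32 CPM in Karl 21 d replicates A, B and C, against 1.36, 7.39 and 38.7 CPM in Karl 7 d replicates 1, 2 and 3, so that its Karl groups overlapped. Its edgeR adjusted p in Karl was 0.0274, and the call was lost without Karl 7 d replicate 3 (0.564), without Karl 21 d replicate A (0.0815) and without Karl 21 d replicate B (0.0795). Of 14 alternatives 11 gave it a value and 8 called it. With library totals alone, HORVU0Hr1G024560 stayed called in Karl (edgeR adjusted p = 0.0402) and the other 3 were not, with adjusted p of 0.119 for HORVU2Hr1G109660, 0.761 for HORVU3Hr1G071870 and 0.361 for HORVU4Hr1G075310.

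Karl libraries were also placed by a score from genes called between the outer days in 10_11. Karl is not in that contrast, but its libraries entered the same fit through the filter, the scaling and the shared spread. The score is the mean log2 CPM over the genes that rose between the outer days in 10_11, less the mean over the genes that fell there. It was 0.88, 0.52 and 0.71 in Karl 21 d replicates A, B and C, against -1.68, -1.64 and -1.57 in Karl 7 d replicates 1, 2 and 3. The days did not overlap, and the difference was 2.33 on the log2 scale (two-sided exact permutation p = 0.1, which 3 against 3 cannot go below). With genes called from the 6 libraries of 10_11 alone it was 2.67. Karl at 14 d lay between, at -0.17, -0.30 and -0.05 in replicates A, B and C. Among the 21 d libraries A had the highest score and the lowest share of counts in falling genes, and B the lowest score and the highest share.

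**Figure D5:**
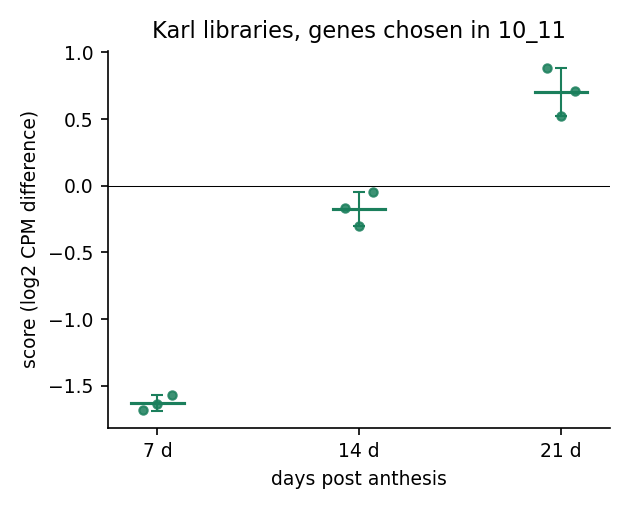
The y axis is the score of each Karl library, the mean log2 CPM of genes that rose in 10_11 minus the mean of genes that fell there, by days post anthesis; bars are means and error bars SD over 3 libraries. The 21 d libraries sit between 0.52 and 0.88, above the 14 d libraries, and the 7 d libraries lie between -1.68 and -1.57.

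Genes that changed lay on every chromosome at similar rates. Read from the identifiers, the share of tested genes that rose ran from 9.53% on chromosome 5 to 11.6% on chromosome 3, and the share that fell from 10.2% on chromosome 3 to 11.97% on chromosome 4. Among the 237 unplaced genes 8.86% rose and 11.4% fell. These rates sit near the 10.4% and 10.9% of all genes. The median log2 fold change of a numbered chromosome ran from -0.02 on chromosome 7 to 0.06 on chromosome 3.

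Neighbours in identifier order were compared with all genes. The gene after one that rose also rose in 12.2% of pairs, against 10.4% of all next genes. The gene after one that fell also fell in 14.4% of pairs, against 10.8% of all. Opposite changes next to each other were also above the rate of all genes, with 11.2% falling after a riser and 11.2% rising after a faller. Between genes within 20 of each other in identifier number, 10.9% rose after a riser, against 9.83% of all, and 13.7% fell after a faller, against 10.6%, while opposite changes were at 9.69% and 9.58%. These differences were not tested. Runs of at least 3 successive tested genes moving the same way numbered 17 for rises and 17 for falls, with 51 and 55 genes in them, and none was longer than 4. How many runs independent placement would give was not computed, so these counts alone do not show clustering. Near-identical copies that lie side by side can share tags, and their part in these runs was not tested.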

How the data were processed

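MARS-seq libraries of flag leaves from Karl and 10_11 were processed by the submitters with bcl2fastq, cutadapt, STAR 2.4.2a, HTSeq and DESeq2, per the submitters' processing notes. Which build and annotation were used, and how molecular identifiers were treated, is not given in the sources. The authors deposited raw counts per gene for 18 libraries in 1 table, and their log2 fold changes and adjusted p-values were used only where their table is named. The authors give the Karl comparison as 7 d over 21 d, and its sign was turned when directions were compared. 36 other per-sample columns were not used.

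From the counts, edgeR 4.0.16 in R 4.3.3 (filterByExpr by group, TMM factors, quasi-likelihood test) was fitted to all 18 libraries with 6 group means and 12 residual degrees of freedom. Of 13626 genes, 9973 passed the filter. P-values were adjusted by Benjamini-Hochberg over all of them, with a threshold of 0.05. DESeq2 1.42.0 was an alternative. Log2 CPM used a prior count of 2. Groups come from the labels, and the labels describe independent samples but not whether they shared pots. Values given for single libraries carry counting error as well.

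Named genes were those called, with no overlap between the days and at least 20 CPM in the higher group, taken by difference of mean CPM. Genes called in opposite directions in the lines were named after their values were seen. The comparison and the lists were chosen with earlier results of these data known. Gene lists by function could not be applied.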

Additional observations from a re-analysis of the deposited data

Results flagged for a closer look

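Of the 4 genes called in opposite directions, 2 had every 21 d library below every 7 d library in Karl and above every one in 10_11. Over all 9973 genes tested, 21 genes (0.211%) had that pattern and 7 (0.0702%) the reverse, whether called or not. HORVU3Hr1G071870 had a log2 fold change (21 d over 7 d) of -0.57 in Karl (SE 0.18, edgeR adjusted p = 0.0285) and of 0.77 in 10_11 (edgeR adjusted p = 0.00334). The difference between the lines was 1.35 (10_11 minus Karl, SE 0.25, unadjusted p = 4.48e-05), with an adjusted p of 0.37 that does not pass (edgeR). HORVU4Hr1G075310 had a log2 fold change of -0.88 in Karl (SE 0.30, edgeR adjusted p = 0.045) and of 0.95 in 10_11 (edgeR adjusted p = 0.0459). Its difference between the lines was 1.83 (10_11 minus Karl, SE 0.46, unadjusted p = 0.000822, adjusted p = 0.439, edgeR). The Karl call of HORVU3Hr1G071870 held in 4 of 14 alternatives and that of HORVU4Hr1G075310 in 3 of 14.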

How the results depend on the processing

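The count of 2118 genes called in Karl stayed within 1.5 times of itself with RLE factors, no filter, DESeq2, the 6 libraries alone, the 9 Karl libraries and without the library labelled 10_11 14 d C. With library totals alone, added after the data were seen, it was 3210 (2688 higher and 522 lower at 21 d). With all libraries thinned to the shallowest, 1269 were called (611 higher and 658 lower) among fewer genes tested, and 1818 in place of 2894 in 10_11. Leaving out 1 of the 6 libraries gave 1442 to 1799 calls, with 684 to 942 higher and 717 to 933 lower. No called gene was called in the opposite direction under any of these settings. The test of the lines' difference called 0 genes by edgeR, 30 by DESeq2 and 1 with 12 libraries alone. With the replicate block within day it called 0. Each of 9 pairs joined a Karl and a 10_11 library of the same day and label. Of these pairs, 4 correlated above 0.1 (range -0.159 to 0.327) and 4 correlated best with their own label. These values are not the correlations of log2 CPM levels between libraries given above. With only 3 labels on a day, best matches with the own label also arise by chance, and how often was not computed. The highest were 21 d C at 0.327 and 21 d B at 0.307. Whether samples with the same label share more than the label was not tested. Karl 21 d and 7 d use different labels, and no block could be fitted to that comparison. The score difference was 2.67 with genes called from the 6 libraries of 10_11 alone, in place of 2.33. The share of counts in the most abundant genes differed by -6.14 percentage points for 10 genes and by -11.79 for 500, against -14.6 for 100. The 4 genes named for their size kept their call and sign in 14 of 14 alternatives. The shallowest Karl library held 599513 counts, and what depth leaves undetected was not tested.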

Other observations

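The composition of the libraries moved in 10_11 as it did in Karl. The effective number of genes was 2028 ± 139 at 21 d, against 989 ± 72.3 at 7 d, in 10_11 (SD, n = 3; two-sided exact permutation p = 0.1, which 3 against 3 cannot go below). As in Karl, this number came from counts without thinning. The 100 genes with the highest mean over all libraries held 31.3% ± 1.58 of counts at 21 d, against 49.4% ± 1.55 at 7 d, in 10_11 (SD, n = 3; exact permutation p = 0.1). In both measures the libraries of the days did not overlap.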
